A study of Mus musculus with 54 samples.

Results

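The 20-h response of Lat-/- naive CD4+ T cells was measured in 6 of the 54 RNA-sequencing libraries of the series, 3 made at 0 h and 3 at 20 h, which were picked by their labels from the count table of the LAT experiment. The cells, of C57BL/6 background, were naive CD4+ T cells that a flow cytometer had sorted out of the pooled spleens and lymph nodes of Lat fl-dtr maT-Cre mice. Cells without human DTR, the receptor for diphtheria toxin, were taken as Lat-/-, and cells with human DTR were taken as WT, so both genotypes came from the same mouse line with the same Cre transgene. RNA of the 0-h samples was extracted directly after purification, and the 20-h samples had been cultured on plate-bound anti-CD3 (3 µg/ml) with soluble anti-CD28 (1 µg/ml). No culture without antibodies is among the groups analyzed here, so the effect of the antibodies and that of 20 h in culture cannot be told apart. The labels give no age, the mice were young adults by the study's methods, and the promoter that drives maT-Cre and the number of mice behind a replicate are not given in the sources used here. The 6 WT libraries at 0 h and 20 h served for comparison, and all 18 libraries of the LAT experiment, the 4-h samples included, shared 1 estimate of the spread.

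LAT is a membrane adaptor of T cells. After the T cell receptor (TCR) binds its ligand, the kinase ZAP70 phosphorylates tyrosines of LAT, and LAT then gathers PLCγ1, GADS, SLP-76, and GRB2 with SOS, from which the calcium–NFAT, RAS–ERK, and NF-κB pathways are started. CD28 is a costimulatory receptor that acts largely through PI3K. In a naive T cell these signals end quiescence, a state held by transcription factors such as FOXO1 and KLF2 and marked by the receptors IL-7Rα and S1P1, and start growth, division, and the production of cytokines.

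The 6 Lat-/- libraries held between 19130020 and 27712553 counts. Levels are given in CPM, counts scaled to a common library size, always for libraries 1, 2, and 3 in this order. Lat itself stood at 15.2, 11.6, and 19.1 CPM at 0 h, which was 4.65 to 7.67% of the WT mean, and at 11.7, 9.91, and 17.2 CPM at 20 h, which was 10.1 to 17.5% of a WT mean that had fallen. The log2 change of Lat was -0.24 ± 0.16 (SE), library 3 had the highest level of Lat and library 2 the lowest at both times, and the source of these remaining reads was not tested. All 12 markers of CD4+ T cells were detected in every library, with a summed level of 10671 to 12126 CPM at 0 h and 10101 to 11301 CPM at 20 h, and Cd8a was at or near 0, while Cd8b1 was at 32.6 to 35.7 CPM at 0 h and 19.5 to 27.4 CPM at 20 h. Of the other cell types, 0 of 6 erythroid, 3 of 12 myeloid, and 4 of 10 B cell markers had more than 3 reads in every library, and Ms4a1, Pax5, Lyz2, Csf1r, and Cd14 were at or near 0. The summed level of the B cell list was 1043 to 1149 CPM at 0 h and 852 to 1138 CPM at 20 h, nearly all of it Ighm. The summed level of the myeloid list was 5.27 to 7.31 CPM at 0 h and 14.5 to 19.0 CPM at 20 h, mostly Fcgr3, and that of the NK cell list 20.8 to 29.6 CPM and 50.8 to 67.4 CPM, nearly all Klrd1, while Ncr1 and Tyrobp were at or near 0. In bulk RNA such as this, fewer cells of a type and less RNA per cell cannot be told apart.

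A gene was called when it changed by more than 2-fold with an adjusted p under 0.05. Among 27780 genes tested in Lat-/- cells, 595 (2.14%) were higher and 575 (2.07%) were lower at 20 h than at 0 h. In WT cells the same thresholds called 2999 genes (10.8%) higher and 3525 (12.7%) lower. Most Lat-/- changes were moderate: the median log2 change was 1.74 among the higher genes and -1.87 among the lower genes, and 352 and 320 of them, respectively, changed by less than 4-fold. A change above 8-fold was seen for 122 higher and 131 lower genes. The higher genes included 522 protein-coding genes and the lower genes 440. Where the mean count was at least 10, in 12185 genes, 4.03% were higher and 3.77% lower, and the median log2 change was -0.02.

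The 20-h libraries were not alike. Of the 595 higher genes, library 3 was the highest of the 3 for 245 and the lowest for 232, and library 2 was the highest for 196 and the lowest for 250, so that no order of libraries held for the whole list. Without library 2 at 20 h, 374 genes were called lower in place of 575. The standard errors printed here come from a fit to every gene with a read, and they were smaller than those of other fits for genes whose libraries differed: for Bcat1 the SE was 0.31 against 0.87 with a filter on low counts and 0.85 with DESeq2, and for Irf4 it was 0.18 against 0.46 and 0.47. Over these 12185 genes the median SE was 0.172, 0.183, and 0.193 in these 3 fits, and 486 higher and 426 lower genes were called in all of them.

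The genes that rose most were led by an enzyme, a chemokine, and a transcription factor. Bcat1, the cytosolic enzyme that starts the breakdown of branched-chain amino acids, had 1, 1, and 4 reads at 0 h and 156, 59, and 589 reads at 20 h, or 7.89, 2.19, and 24.8 CPM. Xcl1, the chemokine lymphotactin, was at 0.494, 0.28, and 0.407 CPM at 0 h and at 25.4, 4.45, and 38.7 CPM at 20 h. Irf4, a transcription factor induced in proportion to the TCR signal, was at 5.03, 3.45, and 5.29 CPM at 0 h and at 93.8, 27.2, and 142 CPM at 20 h. For all 3 genes every 20-h library lay above every 0-h library, with library 3 highest and library 2 lowest. The remaining Lat reads at 20 h had the same order (11.7, 9.91, and 17.2 CPM), and a link between them and these genes was not tested. The log2 changes were 6.92 ± 0.31 for Bcat1, 5.84 ± 0.24 for Xcl1, and 4.25 ± 0.18 for Irf4 (adjusted p = 2.0e-125, and 5.0e-06 with the filter on low counts).

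The other 9 of the 12 genes with the largest rise repeated this order of libraries, except Sec1. Ccl4 and Ccl3, inflammatory chemokines, went from 0.148, 0.0932, and 1.10 CPM to 10.3, 3.04, and 13.7 CPM and from 0, 0, and 0.854 CPM to 4.70, 0.742, and 7.27 CPM. The single 0-h library with Ccl3 reads, library 3, was above library 2 at 20 h, so the groups overlapped for Ccl3 and not for Ccl4. Egr3, a zinc finger factor of the immediate early class, rose from 1.33, 0.979, and 1.5 CPM to 17.7, 8.94, and 29.5 CPM, a log2 change of 3.86 ± 0.20. Rgs16, an inhibitor of G protein signals, rose by 3.58 ± 0.20 on the log2 scale, Chst2, a sulfotransferase, by 3.61 ± 0.22, Pdgfb, a growth factor chain, by 4.46 ± 0.31, Ncs1, a calcium sensor, by 5.72 ± 0.37, and Dtl, a substrate receptor of a ubiquitin ligase active in S phase, by 5.26 ± 0.33. Sec1, a fucosyltransferase, had its highest level in library 2 (5.92, 10.3, and 5.63 CPM at 20 h against 0.444, 0.186, and 0.854 CPM at 0 h).

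**Figure D1:**
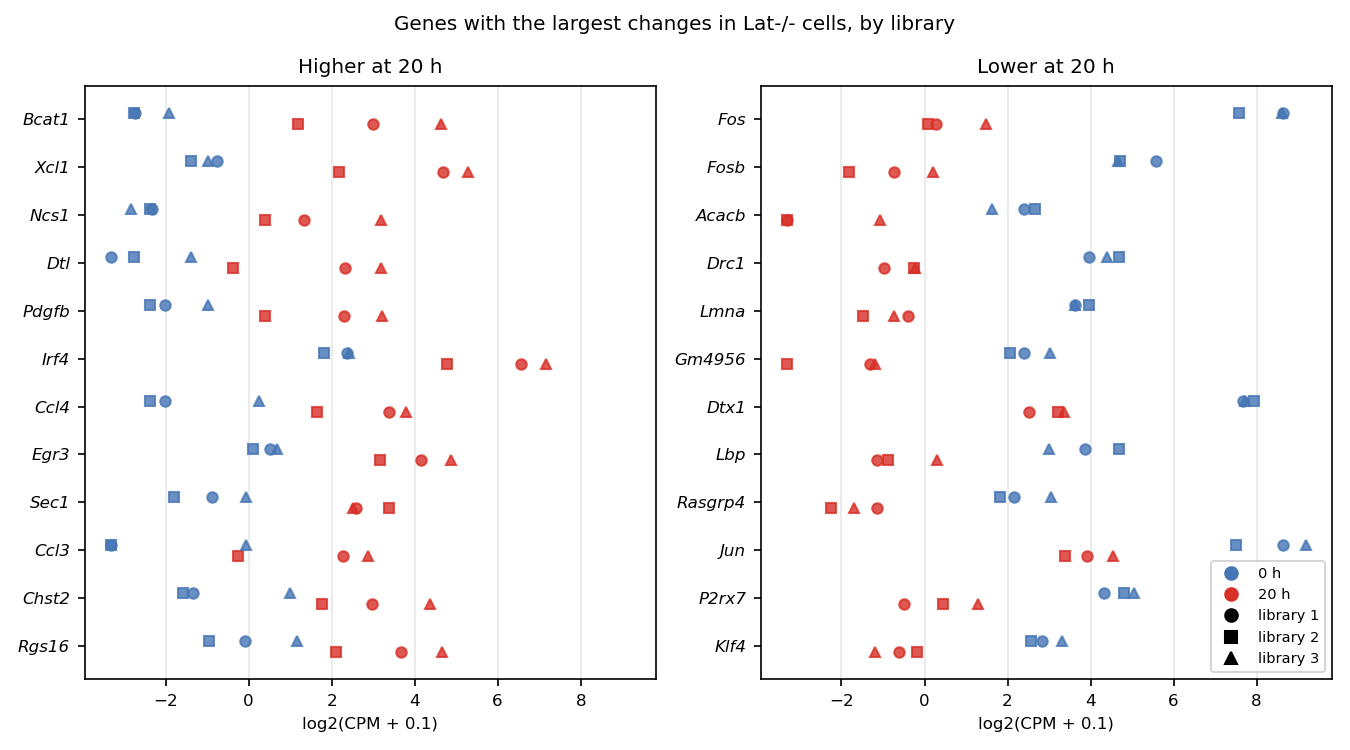
Levels of the 12 genes with the largest rise and the 12 with the largest fall in Lat-/- cells, as log2(CPM + 0.1), for each library at 0 h (blue) and 20 h (red). Library 3 (triangles) is highest and library 2 (squares) lowest at 20 h for most genes that rose, as for Irf4 at 142 and 27.2 CPM. Lat, which is not drawn, was also highest in library 3 and lowest in library 2.

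Among the genes that fell most were the AP-1 factors Fos, Fosb, and Jun of the immediate early class. Fos was at 394, 190, and 390 CPM at 0 h and at 1.11, 0.965, and 2.69 CPM at 20 h. Fosb was at 47.2, 25.9, and 25.3 CPM and then at 0.506, 0.186, and 1.05 CPM, and Jun was at 397, 180, and 584 CPM and then at 15.0, 10.4, and 23.2 CPM. The times did not overlap for any of these genes, and at 0 h library 2 was the lowest for Fos and Jun. The log2 changes were -7.67 ± 0.21 for Fos, -5.83 ± 0.25 for Fosb, and -4.58 ± 0.17 for Jun. Junb, at 1665, 741, and 2420 CPM at 0 h, fell by 3.31 ± 0.16 on the same scale.

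Dtx1, a NOTCH-induced ubiquitin ligase, fell from 202, 246, and 210 CPM to 5.61, 9.17, and 10.1 CPM, a log2 change of -4.72 ± 0.18. P2rx7, the ATP-gated channel of resting T cells, fell from 19.9, 28.1, and 33.1 CPM to 0.607, 1.26, and 2.35 CPM, and Klf4, a factor that restrains T cell division, from 6.96, 5.78, and 9.76 CPM to 0.556, 0.779, and 0.336 CPM. Every 20-h library was far below every 0-h library for these genes. The others of the 12 genes with the largest fall were Drc1, a subunit of the ciliary dynein regulatory complex (log2 change -4.99 ± 0.29), Lmna, which encodes lamin A/C (-4.84 ± 0.31), Acacb, a mitochondrial acetyl-CoA carboxylase (-5.17 ± 0.52), Lbp, the lipopolysaccharide binding protein (-4.61 ± 0.29), Rasgrp4, an exchange factor for RAS (-4.59 ± 0.46), and the pseudogene Gm4956 (-4.80 ± 0.37).

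LAT's own partners did not pass the thresholds. Among all genes with a mean count of at least 10, 4.03% were higher and 3.77% lower, so 0 calls do not set so short a list apart. Of 14 genes for proteins that bind LAT or its complex, 0 were called by edgeR or DESeq2 (at an unadjusted p under 0.05, edgeR gave 1 higher and 4 lower), with log2 changes from -0.53 (Grap) to 0.54 (Nck1). Grap2, which encodes GADS, was at 852, 881, and 831 CPM at 0 h and at 887, 880, and 644 CPM at 20 h, and Plcg1 was at 318, 277, and 306 CPM and at 317, 308, and 249 CPM. Both spans overlapped. Of 15 genes of the TCR complex and its proximal kinases, 1 rose: Cd28, from 9.28, 10.2, and 12.2 CPM to 41.3, 43.8, and 32.8 CPM (log2 change 1.89 ± 0.18). Of 19 negative regulators of TCR signals 0 rose and 2 fell, Sit1, a SHP-2-binding adaptor, from 248, 273, and 248 CPM to 72.0, 84.5, and 90.9 CPM, and Tnfaip3, which encodes the NF-κB inhibitor A20, whose call was lost without library 3 at 0 h (437 CPM, against 201 and 116 CPM).

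Of 12 immediate early factors other than AP-1, 7 rose, 0 fell, and 5 were not called, with a median log2 change of 1.18, beside 0 over all genes tested. Nr4a3 was at 3.16, 2.47, and 2.40 CPM and then at 16.7, 8.09, and 30.0 CPM, and Nr4a2 at 0.691, 0.140, and 0.976 CPM and then at 2.07, 1.04, and 5.76 CPM. Both encode orphan nuclear receptors that report recent TCR signals, and library 2 was lowest at 20 h for both. Nab2, a corepressor of EGR factors, rose by 1.32 ± 0.16 on the log2 scale. The calls of Atf3, Egr2, and Nr4a1 were lost without library 3 at 20 h, and DESeq2 called 6 genes of the list. With the filter on low counts, or without library 3 at 20 h, 4 were called, and the median ratio of the list to its 0-h mean was -0.05 on the log2 scale in library 2 at 20 h. At 4 h the mean level of Nr4a3 was 548 CPM and that of Egr3 181 CPM, so both were nearer their 0-h level at 20 h than at 4 h.

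The AP-1 and BATF list was divided. Of 12 genes, Fos, Fosb, Jun, and Junb fell, and Bach2, Maff, and Fosl1 rose (median log2 change -0.38, or -0.84 with genes that had no reads in a group set at their bound). Bach2, a repressor that keeps T cells from effector fates, was at 105, 94.6, and 125 CPM at 0 h and at 320, 301, and 221 CPM at 20 h, with no overlap. The log2 change was 1.37 ± 0.15. Fosl1 had no read at 0 h and 3, 0, and 20 reads at 20 h, and its call was lost without library 3 at 20 h.

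Of 13 DUSP and Sprouty genes, feedback inhibitors of ERK and other kinases, 4 rose, 1 fell, and 8 were not called, with a median log2 change of 0.21. Spry1 was at 2.76, 1.31, and 4.76 CPM and then at 10.1, 2.89, and 27.0 CPM, and Dusp4, a nuclear phosphatase of ERK, at 1.33, 0.699, and 1.63 CPM and then at 8.85, 2.78, and 20.6 CPM. The times overlapped for Spry1, where library 2 at 20 h lay below library 3 at 0 h, and not for Dusp4. Spred1 rose by 1.37 ± 0.18 on the log2 scale, and Spry4, with 0, 0, and 1 read at 0 h, was called at a very low level. Dusp1, which like Fos is an immediate early gene, fell from 168, 82.5, and 257 CPM to 18.6, 19.4, and 21.2 CPM. Of 12 genes of the NF-κB pathway, Rel rose (41.7, 46.1, and 53.4 CPM to 119, 89.4, and 97.3 CPM), Nfkbiz and Bcl3 fell, and 9 were not called, Nfkb1 among them at 273, 287, and 263 CPM and 317, 265, and 350 CPM. Without library 3 at 0 h, or without library 2 at 20 h, 1 gene of the NF-κB list was called lower. Of 8 NFAT genes 0 were called by edgeR and 1 by DESeq2 (3 were higher at an unadjusted p under 0.05). Of 9 IRF genes Irf4 and Irf8 rose, and the call of Irf8 was lost without library 3 at 20 h.

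Chemokine genes had the largest share of calls of any list. Of 8, Ccl1, Xcl1, Ccl4, Ccl3, Ccl20, and Cxcl10 rose and 0 fell, with a median log2 change of 3.39, or 3.74 with Ccl1 at its bound. Ccl1, the ligand of CCR8, had no read at 0 h and 120, 23, and 118 reads at 20 h, which was at least 29.0-fold higher against a floor of 3 reads per library. Cxcl10, a ligand of CXCR3, was at 0.444, 0.0932, and 0.366 CPM and then at 2.07, 0.520, and 1.51 CPM. The median ratio of the 8 genes to their 0-h mean was 2.21, 0.78, and 2.69 on the log2 scale in libraries 1, 2, and 3 at 20 h, so library 2 was again the lowest.

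Of 18 cytokine genes 5 rose and 0 fell, all of them from low levels. Il2, the T cell growth factor, had 0, 1, and 0 reads at 0 h and 38, 24, and 149 reads at 20 h, or 1.92, 0.891, and 6.27 CPM, where WT cells reached 51.5, 67.3, and 97.0 CPM. Without library 3 at 20 h 2 of the 5 were still called, and Il17a and the genes for RANKL and LIGHT, Tnfsf11 and Tnfsf14, were not. The filter on low counts also left 2. Ifng was at 0, 0.280, and 1.06 CPM at 0 h and at 2.63, 0.297, and 3.24 CPM at 20 h, and Il17a had 0, 0, and 1 read and then 2, 3, and 39 reads. Neither of these was called by DESeq2 (adjusted p = 0.086 for Ifng and 0.15 for Il17a), which called 3 of the 18 genes. Tnf was at 11.7, 7.04, and 18.3 CPM and at 7.74, 3.04, and 20.8 CPM, with overlap.

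RNA for surface proteins of activation moved both ways. Of 13 activation markers 4 rose, and 2 fell. The costimulatory receptors Tnfrsf9 (4-1BB) and Tnfrsf4 (OX40) rose, Tnfrsf9 from 2.86, 2.66, and 4.07 CPM to 28.5, 10.4, and 65.6 CPM and Tnfrsf4 from 5.63, 4.66, and 8.74 CPM to 27.3, 12.6, and 64.0 CPM, with no overlap and with library 3 highest. Cd200 rose by 1.71 ± 0.17 and Icos by 1.51 ± 0.27 on the log2 scale. Cd69, the early marker that holds T cells in lymphoid tissue, fell from 88.7, 124, and 163 CPM to 42.7, 28.1, and 101 CPM, and Cd44, the hyaluronan receptor, from 64.5, 83.3, and 73.3 CPM to 26.2, 27.0, and 46.6 CPM. Library 3 of Cd69 at 20 h lay above library 1 at 0 h, the calls of both genes were lost without library 1 or library 2 at 20 h, and that of Cd69 also without library 3 at 0 h. These values are RNA levels, and the study's methods state that all treated T cells had up-regulated CD25, CD44, and CD69. Of 10 checkpoint genes 3 rose, Pdcd1 (PD-1) from 2.52, 2.75, and 5.37 CPM to 16.4, 6.49, and 38.8 CPM, its ligand gene Pdcd1lg2 by 2.88 ± 0.26 on the log2 scale, and Cd274 (PD-L1), which was at 40.4, 43.1, and 45.0 CPM at 0 h and at 175, 34.0, and 112 CPM at 20 h. Library 2 of Cd274 was below all 0-h libraries, and the call was lost without library 1 at 20 h. The count for the checkpoint list ranged from 2 to 6 when 1 library was left out, with 6 higher without library 3 at 0 h.

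**Figure D2:**
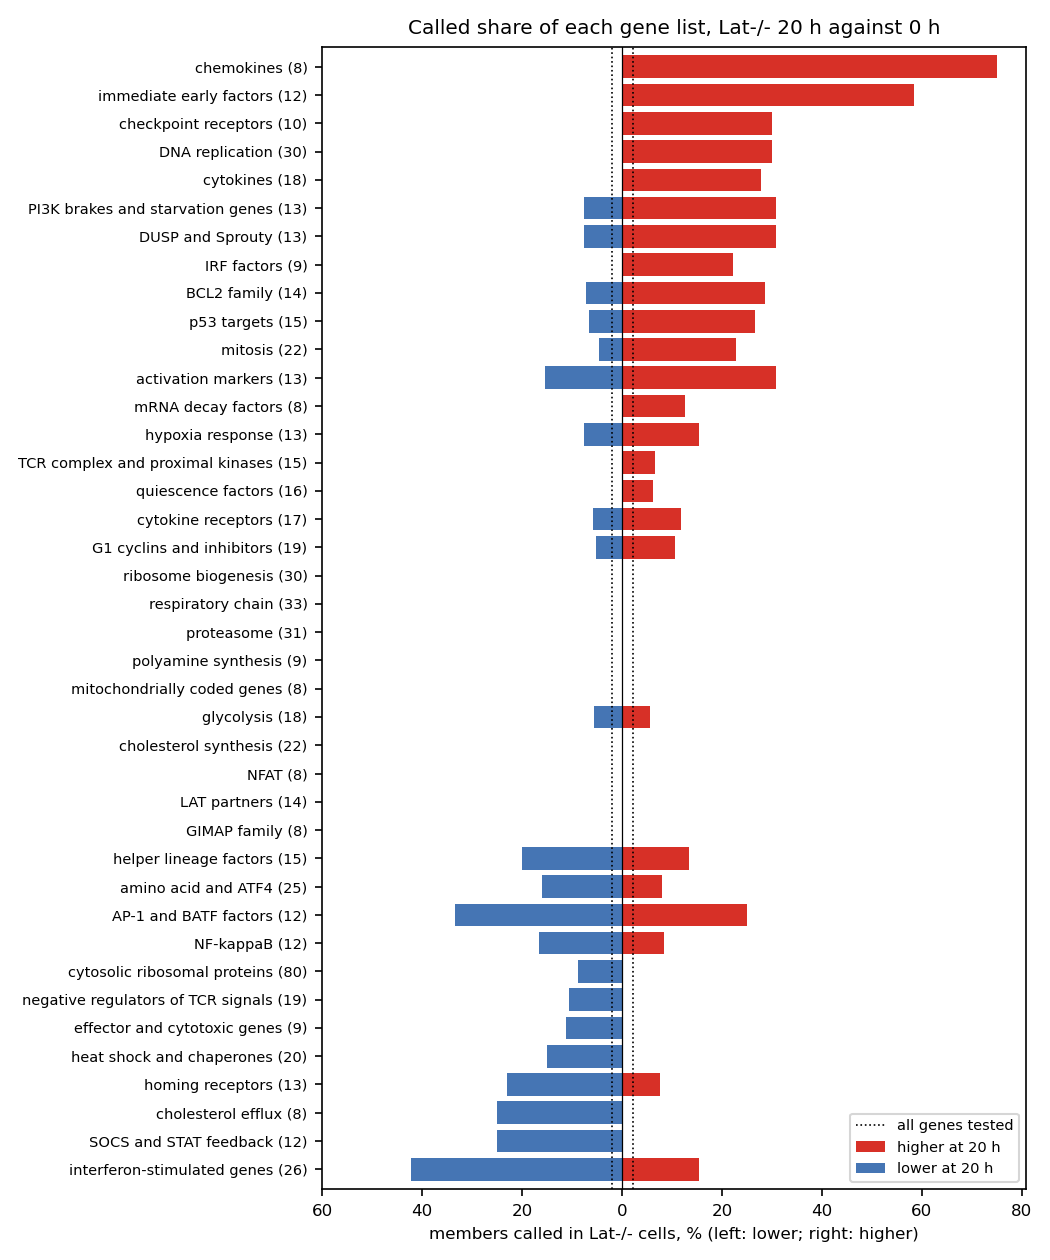
Share of each gene list that was called higher (right) or lower (left) at 20 h in Lat-/- cells, with the number of genes tested in parentheses and dotted lines at the shares of all genes tested (2.14 and 2.07%). Chemokines and immediate early factors reach farthest to the right, and interferon-stimulated genes extend to both sides with 4 higher and 11 lower of 26.

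Interferon-stimulated genes fell into groups that went opposite ways. These genes answer to interferons through the complex ISGF3, which binds the interferon-stimulated response element (ISRE), and through STAT dimers, and they include antiviral enzymes and the guanylate-binding and IRG GTPases, the latter best known as targets of IFN-γ. Of 26 such genes 4 were higher at 20 h, the guanylate-binding and IRG genes Gbp2, Gbp3, Igtp, and Irgm1. Another 11 were lower and 11 were not called, with a median of -0.46 over the list. Gbp2 was at 152, 204, and 144 CPM at 0 h and at 1252, 187, and 885 CPM at 20 h. Igtp was at 382, 521, and 383 CPM and then at 1593, 463, and 1500 CPM, and Irgm1 at 20.0, 23.6, and 21.6 CPM and then at 94.1, 24.6, and 73.7 CPM. Libraries 1 and 3 at 20 h thus stood well above 0 h, while library 2 stayed within or next to the 0-h span for all 4 genes. The log2 changes were 2.22 ± 0.15 for Gbp2 (SE 0.47 and 0.53 with the filter on low counts and with DESeq2), 1.94 ± 0.17 for Gbp3, 1.47 ± 0.15 for Igtp, and 1.56 ± 0.17 for Irgm1, and all 4 calls held in every fit and without any 1 library.

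Isg15, a ubiquitin-like modifier, fell from 47.5, 51.1, and 39.2 CPM to 11.4, 6.68, and 11.9 CPM, and Ifit1, a sensor of foreign RNA, from 53.4, 59.2, and 46.1 CPM to 21.8, 8.46, and 18.8 CPM. Rsad2, which encodes viperin, fell from 8.14, 8.30, and 6.38 CPM to 2.68, 1.04, and 2.10 CPM. All 20-h libraries were below all 0-h libraries for these genes, and library 2 was the lowest. Mx1 had 18, 12, and 20 reads at 0 h and no read at 20 h, which was at least 5.81-fold lower against the floor of 3 reads per library. The others that fell were Oas2 (log2 change -2.45 ± 0.30), Oasl1 (-2.18 ± 0.23), Cmpk2 (-2.10 ± 0.24), Dhx58 (-1.56 ± 0.22), Isg20 (-1.49 ± 0.20), Oas3 (-1.32 ± 0.19), and Usp18 (-1.18 ± 0.18), and the calls of Oas3 and Usp18 were lost without library 2 at 20 h. Ifng, described above, was likewise lowest in library 2 but highest in library 3, with 52, 8, and 77 reads at 20 h. Its part in these differences between libraries was not tested.

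**Figure D3:**
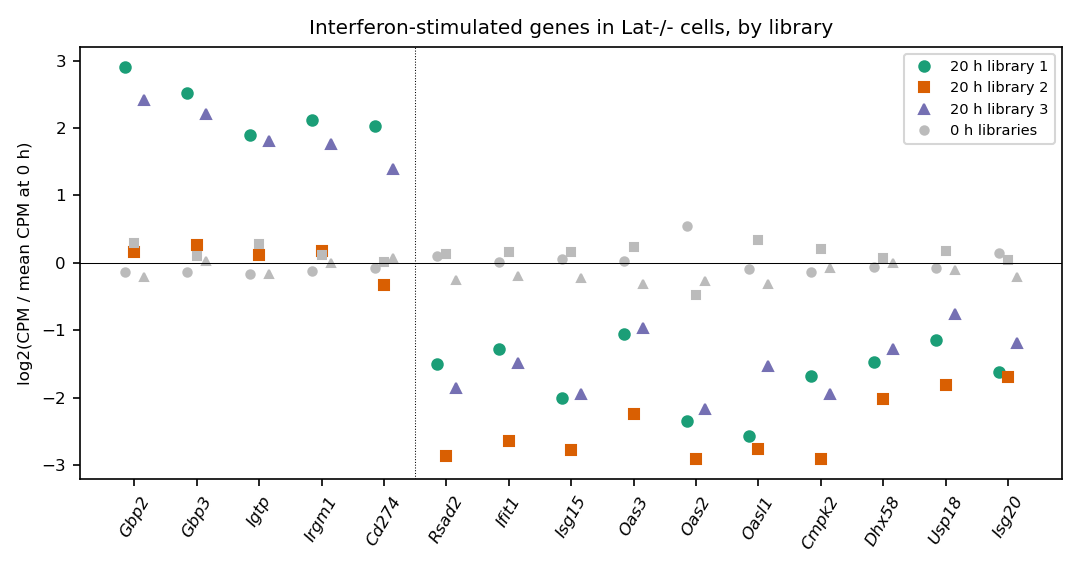
Level of interferon-related genes in each Lat-/- library as log2 of its ratio to the 0-h mean, with 0-h libraries in gray and the 20-h libraries in color. Libraries 1 and 3 lie above 0 and library 2 near or below 0 for the genes on the left, whereas all 20-h libraries lie below 0 on the right. Cd274 is outside the list of 26 and was added after its values were seen.

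Sequences before the start sites of genes from both groups are shown because they let the groups be compared letter by letter. The RefSeq promoters of GRCm38.p6 were searched over the 250 bases before each start for the ISRE core GAAANNGAA on both strands, which was present in 7.13% of 32851 such windows. It was found for 4 of the 4 higher genes, for 4 of 7 lower genes with a promoter entry, and for 3 of 7 listed genes that were not called. Capitals mark the core (read on the given strand as GAAANNGAA or as TTCNNTTTC), and in Igtp also the STAT motif TTCNNNGAA, which was added after the values were seen and was present in 7.02% of windows.
Gbp2, higher (chr3:142620595-142620624, plus strand): ctcttttagtTTCACTTTCactgtcttaag
Gbp3, higher (chr3:142559992-142560021, plus strand): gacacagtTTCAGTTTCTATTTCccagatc
Igtp, higher (chr11:58199511-58199540, plus strand): TTCTAGGAActGAAACTGAAagctgttcgg
Irgm1, higher (chr11:48871429-48871458, minus strand): tgtttcaaGAAATAGAAACCGAAactgatt
Isg15, lower (chr4:156200871-156200900, minus strand): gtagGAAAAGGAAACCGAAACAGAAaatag
Ifit1, lower (chr19:34640775-34640804, plus strand): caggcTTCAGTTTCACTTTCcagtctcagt
Rsad2, lower (chr12:26456553-26456582, minus strand): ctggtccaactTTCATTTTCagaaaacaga
Oas3, lower (chr5:120777712-120777741, minus strand): gggaggaGAAAACGAAAGTGAAgggaggtg
Both groups hold overlapping copies of the core in these stretches, as in Gbp3 and Irgm1 of the higher genes and in Isg15, Ifit1, and Oas3 of the lower genes. The stretches were chosen for holding the most matches, and only genes with a match are shown. The lower genes Isg20, Oasl1, and Cmpk2 had no core in the bases searched. A match of letters is a description of the window and does not show that a factor binds there.

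Genes of quiescence mostly missed the fold threshold. Of 16 quiescence factors 1 rose and 0 fell, with a median log2 change of 0.47, and 14 had a change above 0. Klf6, the called gene, was at 271, 289, and 393 CPM at 0 h and at 660, 717, and 569 CPM at 20 h, a log2 change of 1.03 ± 0.15 next to the threshold of 1, and its call was lost in 4 alternatives. Klf2, the factor that drives S1pr1 in naive cells, was at 529, 477, and 608 CPM and then at 842, 1029, and 925 CPM, with no overlap and a log2 change of 0.79 ± 0.15, and Tcf7 was at 2202, 2134, and 2159 CPM and then at 2817, 3208, and 2555 CPM (0.40 ± 0.14). Neither passed the fold threshold.

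Il7r, which encodes the receptor for the survival cytokine IL-7, was at 528, 654, and 599 CPM at 0 h and at 1862, 2441, and 1867 CPM at 20 h. S1pr1, which lets T cells leave lymph nodes, was at 751, 757, and 786 CPM and then at 2183, 2654, and 1896 CPM. The 3 libraries of each time lay close together and far from those of the other time, and library 2 was the highest at 20 h for both genes. The log2 change was 1.79 ± 0.15 for Il7r and 1.55 ± 0.15 for S1pr1, and both calls held in every alternative. Of 13 homing receptors S1pr1 was the single one to rise. Ccr9, the gut homing receptor, fell from 16.0, 15.9, and 12.4 CPM to 3.08, 6.20, and 4.33 CPM, Cxcr4 fell by 1.11 ± 0.15 on the log2 scale, and Cxcr3, which DESeq2 did not call, by 1.43 ± 0.23. Ccr7 was at 986, 1056, and 997 CPM and at 926, 1111, and 1309 CPM, with overlap.

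Of 13 brakes of the PI3K pathway and starvation genes, Irs2, Ccng2, Sesn1, and Inpp4b rose, Ddit4 fell, and 8 were not called, and the median log2 change was 0.82. Sesn1, a sestrin that inhibits mTORC1, was at 114, 133, and 126 CPM and then at 273, 326, and 309 CPM, and Ccng2, a cyclin of resting cells, at 101, 95.7, and 114 CPM and then at 261, 266, and 242 CPM. Both changed by more than the spread of the libraries, with log2 changes of 1.28 ± 0.15 and 1.31 ± 0.15. Inpp4b, a phosphatase of PI3K lipids, stood at the threshold (1.00 ± 0.15), and its call was lost in 4 alternatives. Ddit4, also an inhibitor of mTORC1, fell from 145, 349, and 262 CPM to 40.4, 52.1, and 61.4 CPM.

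Among 17 cytokine receptors Il7r and Ifngr1 rose and Il21r fell. Ifngr1, a chain of the IFN-γ receptor, was at 185, 234, and 223 CPM at 0 h and at 661, 562, and 463 CPM at 20 h (log2 change 1.39 ± 0.15). Of 12 SOCS and STAT genes, which act in or limit cytokine signals, 0 rose, 3 fell, and 9 were not called, and the median log2 change was 0.16. DESeq2 called 1 of them higher. Cish, an inhibitor induced by STAT5, was at 24.6, 38.9, and 32.7 CPM and then at 5.41, 3.79, and 6.73 CPM, and Socs3, an inhibitor of gp130 receptors, at 366, 296, and 456 CPM and then at 92.2, 86.6, and 114 CPM. No 20-h library reached a 0-h library for these genes, and Socs2 fell by 1.93 ± 0.40 on the log2 scale, from 0.938, 1.03, and 1.63 CPM to 0.152, 0.148, and 0.631 CPM.

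Of 15 helper lineage factors Bcl6 and Prdm1 rose and Foxp3, Maf, and Ikzf2 fell. Bcl6, the factor of follicular helper cells, was at 22.2, 23.4, and 21.3 CPM and then at 63.0, 45.2, and 52.5 CPM. Prdm1, which encodes BLIMP-1 and usually opposes Bcl6, was at 16.4, 15.5, and 18.3 CPM and then at 33.7, 41.3, and 28.1 CPM, with a log2 change of 1.04 ± 0.20 and a call that was lost in 3 alternatives. Foxp3, the factor of regulatory T cells, fell from 24.5, 16.3, and 23.2 CPM to 3.54, 2.30, and 6.01 CPM (log2 change -2.44 ± 0.19). The summed level of the regulatory T cell list was 103 to 131 CPM at 0 h and 107 to 209 CPM at 20 h, with Capg the most abundant of its named members.

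A few genes of the cell cycle rose from very low levels. Of 30 DNA replication genes 9 rose and 0 fell, with a median log2 change of 0.50, and in WT cells all 30 rose, with a median of 3.60. Mcm10, which starts unwinding at origins, had 2, 4, and 3 reads at 0 h and 36, 4, and 98 reads at 20 h. Cdc6, which loads the MCM helicase, had 11, 4, and 4 reads and then 39, 14, and 118 reads, or 1.97, 0.520, and 4.96 CPM at 20 h where the WT mean was 122 CPM. Library 2 at 20 h overlapped with 0 h for Mcm10, and library 3 was highest for both.

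The count for DNA replication ranged from 5 to 11 when 1 library at a time was left out and was 7 without both libraries 3, which had the highest levels of Lat. Of 22 mitosis genes 5 rose and 1 fell, with 1 to 8 higher when 1 library was left out and 2 without both libraries 3. Ccna2, which encodes cyclin A2, was at 0.247, 0.419, and 0.529 CPM and then at 0.759, 0.223, and 4.58 CPM, so that its call rested on library 3. Kif23, a kinesin of cytokinesis, fell from 20.8, 16.9, and 17.1 CPM to 5.31, 5.08, and 6.06 CPM. Uhrf1, which maintains DNA methylation, was at 3.16, 3.12, and 3.42 CPM and then at 9.91, 3.19, and 23.2 CPM, and its call was lost without library 3 at 20 h. The G1 genes Cdkn1a and E2f1 rose and E2f2 fell among 19 of that list, and the calls were lost without library 3 at 20 h for E2f1 and without library 3 at 0 h for E2f2.

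Growth genes showed few calls. Among all genes with a mean count of at least 10 the shares were 4.03% higher and 3.77% lower, so 0 calls in a short list do not by themselves set it apart. Of 30 ribosome biogenesis genes 0 were called in Lat-/- cells (log2 changes from -0.91 to 0.67) and 28 were higher in WT cells. Likewise 0 of 22 cholesterol synthesis genes (-0.81 to 0.94), 0 of 31 proteasome genes (-0.29 to 0.26), 0 of 33 respiratory chain genes (-0.55 to 0.28), and 0 of 9 polyamine genes were called. DESeq2 called 0 in each of these 5 lists as well, and at an unadjusted p under 0.05 edgeR gave 3 higher and 15 lower for ribosome biogenesis, 9 and 2 for cholesterol synthesis, 0 and 1 for the proteasome, 0 and 4 for the respiratory chain, and 3 and 1 for polyamines. Of 18 glycolysis genes Hk2, the inducible hexokinase, rose from 0.197, 0.0932, and 0.366 CPM to 2.78, 0.705, and 7.91 CPM, and Gapdh fell, a gene with many pseudogene copies whose reads may have been assigned in more than 1 way. Myc, the main driver of T cell growth, was at 119, 109, and 115 CPM and at 76.9, 81.6, and 114 CPM. Of 80 cytosolic ribosomal protein genes, which also have many copies, 0 rose and 7 fell, and 4 fell without both libraries 3.

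The list of amino acid and ATF4 genes gave 2 higher and 4 lower of 25, with a median log2 change of -0.39. The lower count was 1 without library 2 at 20 h, and 2 without library 1 at 20 h or with the filter on low counts. Trib3, a pseudokinase induced by ATF4 and CHOP, was at 18.2, 15.0, and 19.1 CPM and then at 64.0, 85.5, and 78.3 CPM (log2 change 2.12 ± 0.18). Atf4 itself was at 260, 227, and 328 CPM and then at 127, 115, and 151 CPM, a log2 change of -1.05 ± 0.15 whose call was lost without library 3 at 0 h or without library 1 or 2 at 20 h. Of 8 cholesterol efflux genes Abca1, a lipid transporter induced by LXR, fell from 45.4, 34.5, and 59.0 CPM to 7.18, 7.68, and 5.51 CPM, and Scd2, a fatty acid desaturase, fell by 1.97 ± 0.16 on the log2 scale. The hypoxia genes Ndrg1 (1.75 ± 0.17) and Mxi1 (1.08 ± 0.17) rose and P4ha2 fell among 13.

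Genes that set survival changed in both directions as well. Of 14 BCL2 family genes 4 rose and 1 fell. The proapoptotic genes Bbc3 (PUMA) and Bcl2l11 (BIM) rose, Bbc3 from 13.7, 14.5, and 16.7 CPM to 44.4, 55.6, and 53.7 CPM and Bcl2l11 from 102, 113, and 117 CPM to 215, 259, and 247 CPM. The antiapoptotic gene Bcl2 fell from 126, 166, and 212 CPM to 63.3, 78.3, and 68.0 CPM. The times did not overlap for any of these genes, and the log2 changes were 1.77 ± 0.17, 1.12 ± 0.15, and -1.26 ± 0.15. Bcl2a1b and Bcl2a1d, antiapoptotic near-identical copies between which reads may have been split, rose as well. Of 15 p53 targets 4 rose, Bbc3, Cdkn1a, Phlda3, and Trp53inp1, and Plk2 fell. Of 20 heat shock genes 0 rose and Hspa1a, Hspa1b, and Hsph1 fell. DESeq2 called 1 of these falls and the filter on low counts left 0, and Hspa1a and Hspa1b are copies that may share reads.

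Lat-/- and WT cells shared part of their responses, and the WT libraries are separate from the Lat-/- libraries. Of the 595 genes higher in Lat-/- cells, 279 were also higher in WT cells, which was 46.9% of the Lat-/- list and 9.30% of the WT list. Of the 575 lower genes, 352 were lower in WT cells, 61.2% of the Lat-/- list and 9.99% of the WT list. Over all genes tested, 10.8% were higher and 12.7% lower in WT cells. Among the 279 genes higher in both, the median log2 change was 2.30 in Lat-/- and 4.48 in WT cells, and the difference between genotypes, tested as an interaction, was called for 127 genes that rose farther in WT and for 2 that rose farther in Lat-/- cells. Among the 352 genes lower in both, the medians were -1.90 and -2.98, and 109 genes fell farther in WT and 18 in Lat-/- cells. Fos, Fosb, and Drc1 were among genes that fell farther in Lat-/- cells, with differences of -2.25 ± 0.24, -2.50 ± 0.32, and -3.46 ± 0.36 on the log2 scale.

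**Figure D4:**
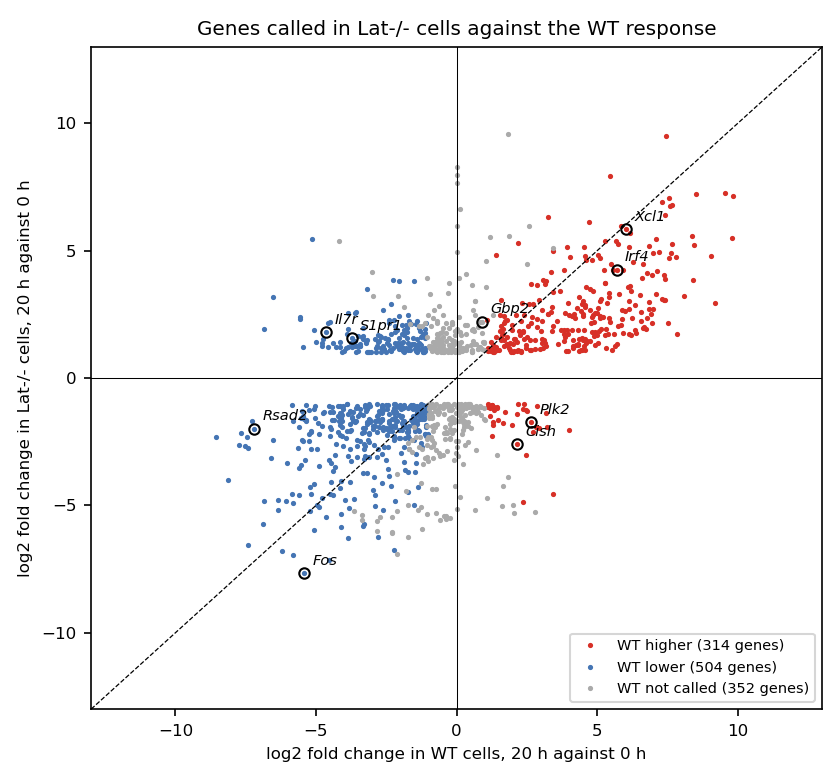
Log2 fold change from 0 h to 20 h of each gene called in Lat-/- cells, in WT cells (horizontal) and in Lat-/- cells (vertical), colored by the call in WT cells, with a dashed line of equal change. Genes in the upper left rose in Lat-/- and fell in WT cells (152 genes), as did Il7r and S1pr1, and those in the lower right did the opposite (35 genes), as did Cish and Plk2.

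Opposite responses were called for 152 genes that rose in Lat-/- and fell in WT cells and for 35 genes that fell in Lat-/- and rose in WT cells. The difference was called for all of them, which was nearly fixed in advance by choosing genes called in opposite directions in the same fit. The 152 were 25.5% of the genes higher in Lat-/- cells, and 12.7% of all genes tested were lower in WT cells. The 35 were 6.09% of the genes lower in Lat-/- cells, below the 10.8% of all genes tested that were higher in WT cells. Il7r was at 577, 548, and 603 CPM in WT cells at 0 h and at 16.8, 16.4, and 36.5 CPM at 20 h, and S1pr1 was at 740, 667, and 816 CPM and then at 54.6, 55.4, and 57.7 CPM. The differences, Lat-/- minus WT, were 6.43 ± 0.22 and 5.28 ± 0.22 on the log2 scale. Ifngr1 (3.49 ± 0.21), Bcl6 (2.91 ± 0.23), Prdm1 (5.10 ± 0.34), Bbc3 (2.88 ± 0.25), Trib3 (3.73 ± 0.26), Ccng2 (3.72 ± 0.22), Sesn1 (2.76 ± 0.22), Trp53inp1 (2.58 ± 0.21), Irgm1 (3.12 ± 0.25), and Klf6 (2.92 ± 0.21) belonged to the same group. So did Klrd1 (5.76 ± 0.31), a lectin receptor, and Fcgr3 (6.17 ± 0.48), an Fc receptor, which are markers of NK and myeloid cells whose summed levels are given above, and the part of such cells was not tested.

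The genes with the largest difference in this direction included several with little known function. Patl2, an mRNA-binding protein, was at 0.592, 0.559, and 0.895 CPM in Lat-/- cells at 0 h and at 5.87, 6.23, and 6.73 CPM at 20 h, and all 3 WT libraries at 20 h had no read, so the fitted difference of 9.72 ± 1.10 gives no size. The noncoding genes Gm10640 (6.71 ± 0.43), Gm9889 (6.66 ± 0.49), and Gm49492 (6.43 ± 0.47) and the protein-coding gene Gm5538 (6.41 ± 0.95), whose rise in Lat-/- cells was not called by DESeq2, came next. Gm9889 (chr3:115715150-115716728, plus strand) starts just beyond the start of S1pr1 (chr3:115710433-115715072, minus strand), and whether strand was used in counting is not given in the sources used here. Gm9889 was at 5.87, 3.54, and 5.65 CPM and then at 10.8, 13.4, and 10.5 CPM in Lat-/- cells.

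In the other direction, Cish was at 34.7, 53.7, and 42.6 CPM in WT cells at 0 h and at 186, 197, and 194 CPM at 20 h, and the difference was -4.74 ± 0.24. Socs2 (-4.77 ± 0.49), Plk2 (-4.40 ± 0.32), Cd44 (-2.58 ± 0.22), Cd69 (-2.24 ± 0.21), Hsph1 (-2.60 ± 0.21), and the amino acid genes Slc1a4 (-3.54 ± 0.39) and Pycr1 (-3.80 ± 0.46) also fell in Lat-/- and rose in WT cells. The fall of Hsph1 and of Pycr1 in Lat-/- cells was not called by DESeq2, and that of Hsph1 was not called with the filter on low counts either. Other genes with a large negative difference rose in both genotypes and far more in WT cells: Uhrf1 (-4.43 ± 0.25), Cpd, a carboxypeptidase (-4.40 ± 0.35), Fignl1, a factor of DNA repair (-4.37 ± 0.37), and Rrm2, a subunit of ribonucleotide reductase (-4.34 ± 0.25).

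**Figure D5:**
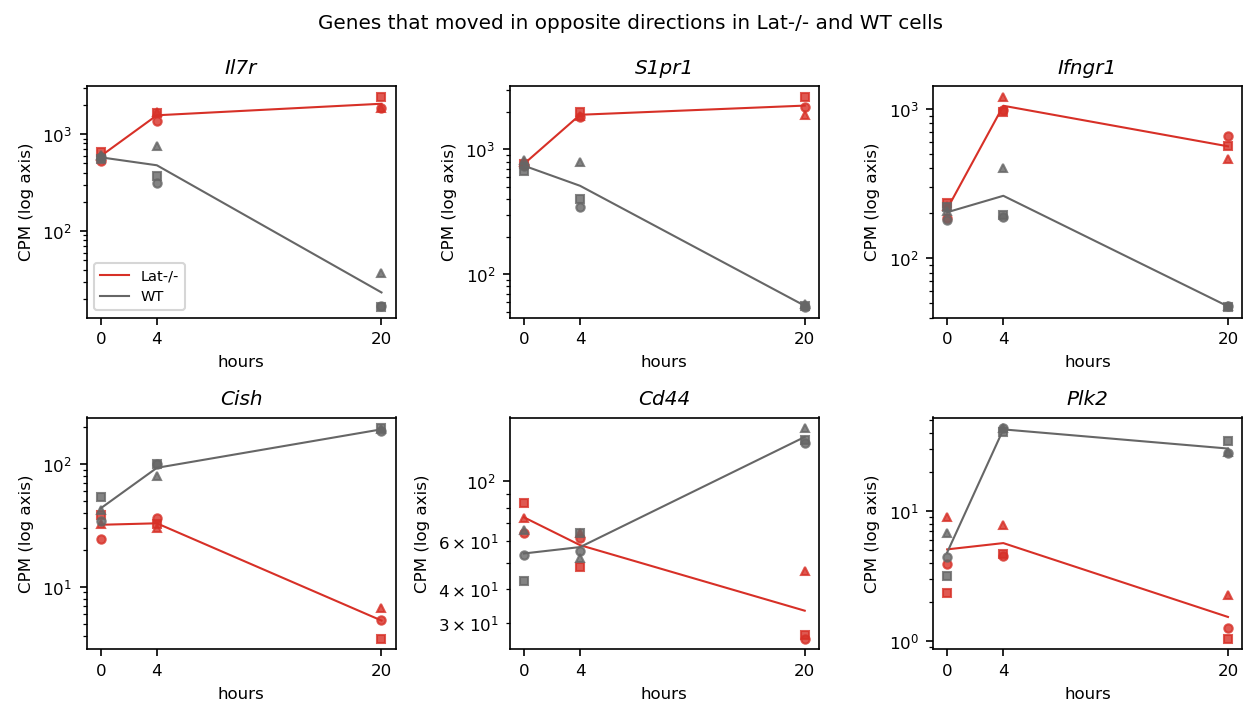
Levels in CPM (log axis) at 0, 4, and 20 h of 6 genes that moved in opposite directions, with points for libraries and lines through the means of Lat-/- (red) and WT (gray) cells. In Lat-/- cells Il7r and S1pr1 were already above 0 h at 4 h (means of 1564 and 1895 CPM), and Cish was not yet lower at 4 h (33.0 CPM).

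The difference between genotypes was called for more members of several lists than the Lat-/- response itself. The quiescence factors had 12 of 16 lower in WT cells, and the difference was called higher for 13, Klf2 among them (4.57 ± 0.22). The PI3K list had 8 of 13 lower in WT cells and 9 with a higher difference, as for Pik3ip1 (4.44 ± 0.22), an inhibitor of PI3K. Of the 26 interferon-stimulated genes 21 were lower in WT cells, and 23 had a higher difference, so that the fall of the 11 genes in Lat-/- cells was smaller than that in WT cells for all but Mx1, where the difference was not called. For Rsad2 the difference was 5.23 ± 0.62. Conversely, all 30 DNA replication genes, 22 of 22 mitosis genes, and 29 of 30 ribosome biogenesis genes had a lower difference, and Myc, at 150 CPM (WT mean) at 0 h and 647 CPM at 20 h, had a difference of -2.43 ± 0.21. Over all genes tested the difference was called higher for 10.1% and lower for 9.35%.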

How the data were processed

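RNA of naive CD4+ T cells was sequenced by the authors as stranded mRNA libraries in single reads, which were trimmed with DimerRemover, mapped to GRCm38 (mm10) with STAR, and counted with featureCounts. The submitters' processing notes also name bcl2fastq 2.17.1.14 and DESeq2. The authors deposited 1 count of reads per gene and library, without normalization or pooling. The annotation release, the use of strand, and the rule for multiply matching reads are not given in the sources used here. Groups and replicate numbers came from the labels, all columns were assigned, and 0 per-sample columns were left unused. Gene names came from the GENCODE annotation of GRCm38 for 55144 of 55385 identifiers, and promoters from RefSeq (GRCm38.p6).

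The software was edgeR 4.0.16, with limma 3.58.1, DESeq2 1.42.0, and the package data.table (1.17.8), under R 4.3.3. Every gene with a read in any of the 18 libraries entered 1 fit, scaled by TMM, with a coefficient for each genotype and time, and responses were tested by the quasi-likelihood test of edgeR with p adjusted after Benjamini and Hochberg over all genes. A call needed a change of more than 2-fold and an adjusted p under 0.05, and the difference between genotypes was tested as an interaction in the same fit. The procedure was tested on simulated counts. Their spread was estimated from these data in the same way, so that test could not show whether the SE was too small. Values with ± are log2 changes with their SE in this fit (n = 3 libraries per group). This SE draws on the spread estimated over all 18 libraries and is not the spread of a gene's own 3 libraries. For genes whose libraries differed it was smaller than in the other fits. The floor of 3 reads per library covers counting error only, as PCR copies cannot be told from molecules.

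Genes were named by rule where their counts averaged 50 or more and all 3 same-numbered library pairs moved alike: the 12 per direction with the largest change and the 6 per direction with the largest difference from WT, together with members of 38 gene lists (605 genes) and 8 marker lists. The members and lists were chosen with earlier results of these data known. Alternatives were a replicate block, the omission of each library, a filter on low counts (filterByExpr), the compared groups alone, adjusted p alone, DESeq2, RLE factors, and unscaled library totals. The fit without both Lat-/- libraries 3 was chosen after seeing the data. The labels call the replicates biological, and no pair of Lat-/- libraries of a group agreed within sampling noise (chi-square per degree of freedom 17.4 to 48.7). Some genes are not reported here.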

Additional observations from a re-analysis of the deposited data

Results flagged for a closer look

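The 20-h responses of Lat-/- and WT cells differed by the interaction test for 2813 genes in the higher and 2598 genes in the lower direction. The genes below were called in that test, and their values are log2 differences of the responses, Lat-/- minus WT.

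Among genes that rose in Lat-/- and fell in WT cells, the difference was 6.43 for Il7r, 5.28 for S1pr1, 5.10 for Prdm1, 3.73 for Trib3, 3.72 for Ccng2, 3.49 for Ifngr1, 3.12 for Irgm1, 2.92 for Klf6, 2.91 for Bcl6, 2.88 for Bbc3, 2.76 for Sesn1, and 2.58 for Trp53inp1. It was 6.17 for Fcgr3 and 5.76 for Klrd1, which were listed as markers of myeloid and NK cells. Other markers of these lists, such as Lyz2, Csf1r, Cd14, Ncr1, and Tyrobp, were at or near 0 in Lat-/- cells, and the part of such cells was not tested. It was 9.72 for Patl2, which had no read in WT cells at 20 h, 6.71 for Gm10640, 6.66 for Gm9889, 6.43 for Gm49492, and 6.41 for Gm5538.

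Klf2 (4.57) and Pik3ip1 (4.44) fell in WT cells and were not called in Lat-/- cells, and Rsad2 (5.23) fell farther in WT cells. In the lower direction, Cish (-4.74), Socs2 (-4.77), Plk2 (-4.40), Pycr1 (-3.80), Slc1a4 (-3.54), Hsph1 (-2.60), Cd44 (-2.58), and Cd69 (-2.24) fell in Lat-/- and rose in WT cells. Uhrf1 (-4.43), Cpd (-4.40), Fignl1 (-4.37), and Rrm2 (-4.34) rose in both and farther in WT cells, and Myc (-2.43) rose in WT cells alone by the thresholds used. Drc1 (-3.46), Fosb (-2.50), and Fos (-2.25) fell in both and farther in Lat-/- cells.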

How the results depend on the processing

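The counts of genes called in Lat-/- cells were 567 higher and 479 lower with DESeq2, 627 and 548 with RLE factors, 541 and 640 with library totals without TMM factors, 509 and 477 with filterByExpr, and 568 and 573 with the compared groups alone. With adjusted p alone they were 1486 and 1484, and 4578 genes were higher in WT cells. When 1 library at a time was left out, they ranged from 511 to 609 and from 374 to 614, the lowest without library 2 at 20 h, and the counts of the difference from 2594 to 3043 and from 2336 to 2765. Without both libraries 3, the libraries with the highest levels of Lat, they were 568 and 485. The share of higher genes among called genes was 50.9%, against 53.4% with RLE factors and 45.8% without TMM factors.

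With the replicate block they were 602 and 565. Same-numbered libraries at 0 h and 20 h deviated together weakly over 12540 genes (r = 0.117, 0.139, and 0.0729). Differently numbered libraries had r from -0.157 to 0.0747, the highest for library 3 at 0 h with library 1 at 20 h. These values do not decide whether equal numbers mark a pairing, and the main fit used no block.

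Of 140 genes named that were called in Lat-/- cells, 97 kept their call in every alternative and 43 lost it in at least 1. When 1 library was left out, list counts other than those given above that moved by more than 1.5 times included 0 to 2 higher for quiescence factors and for SOCS and STAT genes, 0 to 3 higher for cholesterol synthesis, 0 to 3 lower for activation markers, 1 to 3 lower for DUSP and Sprouty genes, 1 to 4 lower for helper lineage factors, and 4 to 9 lower for ribosomal protein genes. The differences between genotypes listed above kept their direction and call in all alternatives run. Ncr1, with reads almost only in library 3 at 0 h, had a log2 change of 0.00 without that library, alone or with library 3 at 20 h, in place of -4.92, and values from -5.48 to 0.00 over the libraries left out. A gene at 0 can be bounded only by the floor of 3 reads, 0.111 to 0.152 CPM in these libraries.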
